A study of Arabidopsis thaliana with 57 samples.

Results

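AGAMOUS (AG, AT4G18960), the only gene measured in the deposited table, was read out there as 4 features, the sense and the antisense reads of an enhancer region (AGe) and of a promoter region (AGp). They were taken because no other gene was counted, and they are described over all 57 libraries in 20 groups. AG encodes a MADS-box transcription factor that specifies stamens and carpels and ends the growth of the floral meristem. Its large intron holds the enhancer through which activators such as LEAFY and WUSCHEL and repressors such as APETALA2 set its pattern in flowers. In plants, noncoding transcripts over a regulatory sequence can feed RNA-directed DNA methylation, in which small RNAs guide methylation to the matching DNA and silence it.

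The libraries were strand-specific RNA-seq of ribosome-depleted total RNA from young flowers of Arabidopsis thaliana. In batch A the Columbia background (Col) carried the transgene cassette AGP//AGe and had flowers of phenotype Wt, rMf or sMf. The remaining batch A groups all had Wt flowers and were M317, M318, and Col with either ARE//AGe or Ctr//AGe. In batch B, plants without a cassette and with Wt flowers were Col, suvh1-2, hdp1-1 or hdp2-1. Plants with a cassette were Col with ARE//AGe and Wt flowers, hdp1-1 or hdp2-1 with ARE//AGe and Wt, rMf or sMf flowers, and suvh1-2 with ARE//AGe and flowers scored Wt or sMf. SUVH1 binds methylated DNA and promotes expression nearby, and HDP1 and HDP2 are transposase-derived proteins of a complex that counteracts silencing. The labels do not spell out the cassette, line and phenotype names, which are used here as given. Groups had 3 libraries, except M318, suvh1-2 ARE//AGe with Wt flowers and hdp1-1 ARE//AGe with rMf flowers, which had 2. Each library was RNA pooled from 5 to 10 lines of one phenotype, so the spread is that between pools. A read from a cassette copy of a region cannot be told apart from one of the endogenous locus, and in bulk flowers fewer cells with a transcript cannot be told apart from less of it per cell. With AG alone in the table, the tissue could not be checked against marker genes, and no gene with a like pattern could be sought.

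Uniquely mapped reads numbered 16259524 to 56584186 per library, and levels are reads per 1000000 of them (RPM), divided where stated by the region's length in kb. AGe reads of both strands numbered 74 to 1073 per library, and AGp reads 0 to 61. Multiply mapped reads exceeded 20% of mapped reads in 7 mutant libraries with ARE//AGe. These were suvh1-2 sMf replicate 3 and, in hdp1-1, Wt replicates 2 and 3, rMf replicate 2 and all sMf replicates (21.5% to 36.5%). Division by uniquely mapped reads alone raises RPM in such libraries relative to the rest, mainly in hdp1-1 ARE//AGe. The deposited depths of Col AGP//AGe sMf replicates 2 and 3 are doubtful, since the mapped reads of one exceeded its total reads. Strand shares and ratios between regions of one library do not depend on these depths.

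AG is transcribed from the plus strand at chr4:10382856-10388539 and has 4 RefSeq transcripts in the TAIR10.1 reference. AGe, chr4:10384147-10387145 (2999 bp), is a whole intron of 1 transcript, and the other 3 transcripts have a coding exon of 90 bp inside it, which makes up 3.00% of the region. AGp, chr4:10380701-10382800 (2100 bp), overlaps no annotated gene and ends 56 bp before AG. Its column is headed both AG promoter and M2, with no word on which libraries were counted as which, and is called AGp here. Both regions have a GC content of 28.6%, and every window of 50 bases in them occurs once in the reference, so neither loses unique reads to a second copy there.

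**Figure D1:**
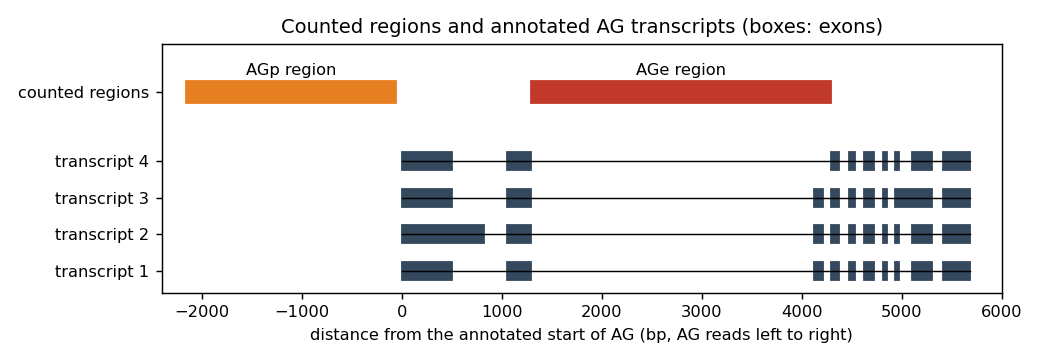
Positions of the counted regions and of the exons of the 4 annotated AG transcripts, in bp from the annotated start of AG. The AGp region lies upstream of the start, and the AGe region fills the large intron, with a 90 bp exon inside its right end in 3 of the 4 transcripts.

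The stretch of the enhancer with the most matches to the LEAFY core motif CCANTG is shown first. The motif was searched on both strands, capitals mark the matches, and the first block of capitals holds overlapping matches on both strands. The last 300 bases of AGp, next to the start of AG, and the exon inside AGe follow, and neither holds a match. All are plus-strand sequences of TAIR10.1, at chr4:10386485-10386784, chr4:10382501-10382800 and chr4:10386982-10387071.
AGe window: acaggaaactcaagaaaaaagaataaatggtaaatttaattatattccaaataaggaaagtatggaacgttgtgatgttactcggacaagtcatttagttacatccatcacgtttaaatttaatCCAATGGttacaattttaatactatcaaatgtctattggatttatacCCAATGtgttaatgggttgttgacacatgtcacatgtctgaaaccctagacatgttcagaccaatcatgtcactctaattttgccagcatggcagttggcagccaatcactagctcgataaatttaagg
AGp end: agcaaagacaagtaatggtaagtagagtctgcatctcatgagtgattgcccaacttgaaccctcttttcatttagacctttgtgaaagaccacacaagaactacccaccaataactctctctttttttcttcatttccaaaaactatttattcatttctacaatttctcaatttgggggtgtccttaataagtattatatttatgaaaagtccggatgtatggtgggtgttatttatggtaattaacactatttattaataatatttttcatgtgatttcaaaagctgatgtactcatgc
AGe exon: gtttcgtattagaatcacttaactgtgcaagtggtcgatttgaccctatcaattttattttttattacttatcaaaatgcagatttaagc

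CCANTG occurred 6 times in AGe and 1 time in AGp. These counts do not set either region apart, because 95.7% of same-length windows tiled along chromosome 4 hold at least 1 match in the AGe case and 90.6% in the AGp case, and 32.8% hold as many as AGe or more. The outer bases of a CArG box, the motif bound by MADS-box proteins, searched as CCNNNNNNGG, occurred 2 times in AGe and 1 time in AGp, against 93.2% and 86.0% of windows with a match.

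Per kb of region, reads were most frequent on the sense strand of AGe in every group except Col ARE//AGe of batch B. Over the 57 libraries the AGe sense level had a median of 2.78 RPM per kb and ranged from 0.851 to 5.55. The AGe antisense level had a median of 0.332 RPM per kb and ranged from 0.0135 to 5.37. In the 34 libraries of the 12 groups with at least 10 AGp reads, AGp sense reads had a median of 0.136 RPM per kb (0 to 0.423) and AGp antisense reads 0.171 RPM per kb (0.0153 to 0.315). Values and percents per kb of AGp divide by its 2100 bp, so they hold only for libraries in which the column was counted over AGp and not over M2. The level of AGp antisense reads per kb exceeded that of AGe antisense reads in 2 of the 34 libraries, and the level of AGp sense reads never exceeded that of AGe sense reads.

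**Figure D2:**
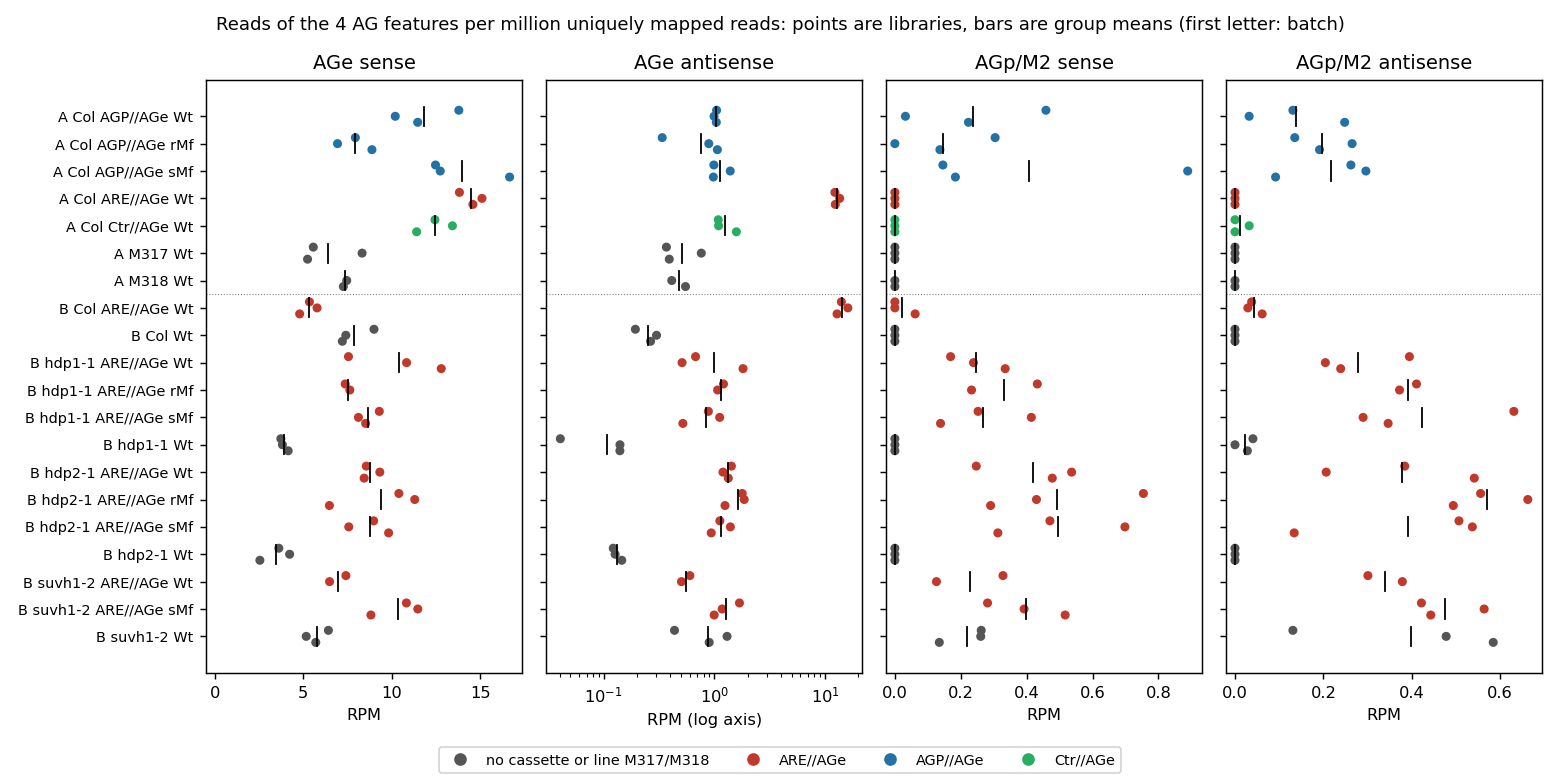
RPM of each feature by group, with a point per library, colours for the cassette and bars for group means; AGe antisense is on a log axis and the dotted line divides batch A from batch B. AGe antisense is highest in both Col ARE//AGe groups, and at least 10 AGp reads were found in 12 groups, those with AGP//AGe, suvh1-2 without a cassette and the mutants with ARE//AGe.

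In batch A, Col ARE//AGe had 4.83 ± 0.213 RPM per kb of AGe sense reads and 4.25 ± 0.240 of AGe antisense reads (mean ± SD, n = 3 unless stated). Ctr//AGe had 4.14 ± 0.337 sense and 0.418 ± 0.0950 antisense. AGP//AGe had 3.94 ± 0.607 sense and 0.343 ± 0.00988 antisense with Wt flowers, 2.64 ± 0.324 and 0.255 ± 0.127 with rMf flowers, and 4.65 ± 0.781 and 0.374 ± 0.0784 with sMf flowers. M317 had 2.13 ± 0.564 sense and 0.169 ± 0.0737 antisense, and M318 had 2.45 ± 0.0450 and 0.160 ± 0.0322 (n = 2). Among these groups only ARE//AGe had an antisense level near its sense level.

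In batch B without a cassette, Col had 2.62 ± 0.327 RPM per kb of AGe sense reads and 0.0844 ± 0.0182 of antisense reads. The mutant suvh1-2 had 1.92 ± 0.209 and 0.293 ± 0.145, hdp1-1 had 1.30 ± 0.0726 and 0.0357 ± 0.0192, and hdp2-1 had 1.16 ± 0.283 and 0.0439 ± 0.00418. Col ARE//AGe had 1.77 ± 0.164 sense and 4.78 ± 0.545 antisense, the only group with more antisense than sense reads in each library. With ARE//AGe and Wt flowers the sense and antisense levels were 2.32 ± 0.217 and 0.184 ± 0.0228 in suvh1-2 (n = 2), 3.47 ± 0.883 and 0.334 ± 0.237 in hdp1-1, and 2.93 ± 0.160 and 0.440 ± 0.0387 in hdp2-1. With sMf flowers they were 3.46 ± 0.461 and 0.429 ± 0.119 in suvh1-2, 2.88 ± 0.1998 and 0.280 ± 0.101 in hdp1-1, and 2.93 ± 0.379 and 0.384 ± 0.0769 in hdp2-1. With rMf flowers they were 2.50 ± 0.0616 and 0.380 ± 0.0330 in hdp1-1 (n = 2), and 3.13 ± 0.855 and 0.544 ± 0.111 in hdp2-1. When the 20 groups are ordered by mean, the libraries of neighbouring groups overlapped in 18 of 19 neighbour pairs for AGe sense and in 16 for AGe antisense. The antisense order had gaps below the Col ARE//AGe groups, between M318 and Col, and between Col and hdp2-1 without a cassette.

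The antisense share of AGe reads, which needs no library size, set Col ARE//AGe apart from all other groups. It was 46.8% ± 0.751 in batch A and 72.9% ± 0.582 in batch B, and the other 18 groups had means from 2.63% to 15.0%. Among those the order ran from hdp2-1 ARE//AGe rMf (15.0% ± 1.05), suvh1-2 without a cassette (13.4% ± 6.89), hdp1-1 ARE//AGe rMf (13.2% ± 1.28, n = 2), hdp2-1 ARE//AGe Wt (13.1% ± 1.54) and hdp2-1 ARE//AGe sMf (11.8% ± 3.48) to suvh1-2 ARE//AGe sMf (11.0% ± 2.21). Next came Ctr//AGe (9.24% ± 2.56), hdp1-1 ARE//AGe sMf (8.84% ± 3.18), AGP//AGe rMf (8.73% ± 4.04), hdp1-1 ARE//AGe Wt (8.39% ± 3.97), AGP//AGe Wt (8.09% ± 0.933) and AGP//AGe sMf (7.59% ± 2.16). At the low end were suvh1-2 ARE//AGe Wt (7.36% ± 0.204, n = 2), M317 (7.19% ± 1.11), M318 (6.13% ± 1.26, n = 2), and hdp2-1 (3.86% ± 1.35), Col (3.18% ± 0.951) and hdp1-1 (2.63% ± 1.35) without a cassette. In this order 17 of 19 neighbour pairs overlapped, the exceptions being both Col ARE//AGe groups.

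**Figure D3:**
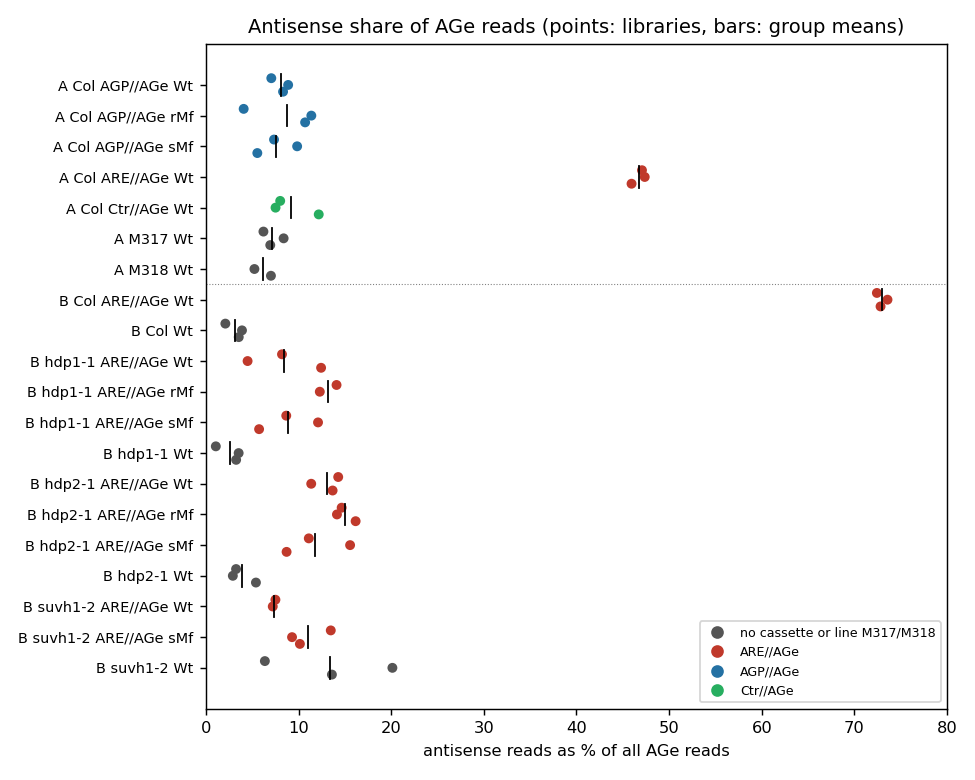
Antisense reads as a percent of all AGe reads in each library, by group, with bars for group means. The 6 Col ARE//AGe libraries lie from 45.9% to 73.6%, and the other 51 libraries lie between 1.08% and 20.1%.

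Of 27 comparisons of the antisense share, 12 passed an adjusted p of 0.05 in edgeR's quasi-likelihood test, which is 44.4%, with 6 higher and 6 lower, and 12 passed with limma. Changes are given as log2 of the odds of antisense against sense, with p-values adjusted over the 27. Each of the 9 called comparisons between a pair of groups had libraries that did not overlap. There the two-sided exact permutation test of the mean share gave 0.1, the smallest p it can give with 3 or 2 libraries against 3. Libraries also did not overlap in uncalled comparisons, namely M318 against Ctr//AGe and sMf against Wt in suvh1-2 ARE//AGe (exact permutation p = 0.2 in each). The calls therefore depend on a spread estimated over all groups together. Several comparisons share Col, Ctr//AGe or Col ARE//AGe libraries and are not independent.

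In Col, ARE//AGe went with a shift of AGe reads to the antisense strand in both batches. The controls were unlike, being Ctr//AGe in batch A and plants without a cassette in batch B, so the sizes of the shifts do not compare directly. In batch A the antisense reads were 493 of 1073, 477 of 1007 and 410 of 871 with ARE//AGe, and 53 of 435, 34 of 452 and 26 of 324 with Ctr//AGe. The odds were higher with ARE//AGe by log2 3.12 ± 0.31 SE (edgeR adjusted p = 1.106e-11). In batch B they were 209 of 287, 554 of 753 and 373 of 515 with ARE//AGe, and 6 of 169, 17 of 436 and 6 of 285 in Col without it (log2 6.34 ± 0.40 SE, edgeR adjusted p = 4.687e-18). Both strands moved in batch B, since the mean RPM with the cassette was 0.675 of that without it on the sense strand and 56.6 times it on the antisense strand. Between the batches, Col ARE//AGe itself differed by log2 1.62 ± 0.28 SE in the odds (edgeR adjusted p = 5.24e-06). Its mean sense level in B was 0.366 of that in A, and its mean antisense level 1.12 times that in A. The index primers differed between the batches, and their part in this difference was not tested.

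In the mutants, ARE//AGe went with a smaller shift or none that passed. Batch B had no Ctr//AGe group, so there carrying ARE//AGe cannot be told apart from carrying any cassette. The mean share with Ctr//AGe in batch A was 9.24%. With ARE//AGe and Wt flowers it was 8.39% in hdp1-1, 13.1% in hdp2-1 and 7.36% in suvh1-2, and these were not tested against Ctr//AGe. In hdp1-1 the antisense reads were 76 of 611, 15 of 333 and 12 of 146 with ARE//AGe and Wt flowers, and 5 of 153, 4 of 113 and 1 of 93 without it. The odds rose by log2 1.71 ± 0.58 SE (edgeR adjusted p = 0.00601), but with replicate 1 of hdp1-1 ARE//AGe left out the change was 1.11 and did not pass (edgeR adjusted p = 0.151). In hdp2-1 they were 42 of 307, 29 of 255 and 52 of 364 with the cassette and 4 of 74, 3 of 103 and 3 of 92 without it, a rise of log2 1.97 ± 0.57 SE (edgeR adjusted p = 0.00121). In both mutants the strands rose unequally, the mean RPM being 2.66 and 2.53 times as high on the sense strand and 9.36 and 10.03 times as high on the antisense strand. The hdp1-1 folds include ARE//AGe Wt replicates 2 and 3, which were over 20% multiply mapped. In suvh1-2 the antisense reads were 20 of 277 and 22 of 293 with ARE//AGe and 20 of 147, 30 of 149 and 10 of 157 without it. The difference of log2 -0.92 ± 0.43 SE did not pass (edgeR adjusted p = 0.0803, 95% interval -1.80 to -0.05). That difference passed without suvh1-2 replicate 3 (log2 -1.35, edgeR adjusted p = 0.00705) and was log2 -0.46 without suvh1-2 replicate 2 (edgeR adjusted p = 0.511).

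Whether this change with the cassette differed between a mutant and Col was tested directly. It was log2 -7.27 ± 0.59 SE in suvh1-2, -4.63 ± 0.70 in hdp1-1 and -4.38 ± 0.69 in hdp2-1 (edgeR adjusted p = 2.613e-14, 5.24e-06 and 9.535e-06). With the cassette and Wt flowers on both sides, the odds were lower than in Col by log2 -5.08 ± 0.39 SE in suvh1-2, -4.85 ± 0.33 in hdp1-1 and -4.15 ± 0.31 in hdp2-1 (edgeR adjusted p = 5.962e-15, 4.151e-16 and 8.039e-15). The hdp1-1 values were -5.23 for the difference in change and -5.46 against Col when replicate 1 of hdp1-1 ARE//AGe was left out. The mean RPM of the mutants was 1.31, 1.96 and 1.65 times that of Col on the sense strand and 0.0386, 0.0699 and 0.0921 of it on the antisense strand. As levels, antisense was lower in all 3 mutants, and sense was higher in hdp1-1 and hdp2-1 (edgeR adjusted p = 2.53e-05 and 0.000979). The sense difference of log2 0.38 for suvh1-2 missed the threshold (edgeR adjusted p = 0.0869).

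Without a cassette, suvh1-2 had a higher antisense share than Col, at log2 2.18 ± 0.44 SE (edgeR adjusted p = 3.343e-05). Its libraries spread widely, at 13.6% (exact 95% binomial interval 8.51% to 20.2%), 20.1% (14.0% to 27.5%) and 6.37% (3.10% to 11.4%), all above the highest Col library at 3.90%. The share in hdp1-1 and hdp2-1 did not differ detectably from Col (log2 -0.22, 95% interval -1.48 to 1.03, and log2 0.22, -1.03 to 1.48). Their mean RPM was 0.496 and 0.441 of that of Col on the sense strand and 0.423 and 0.520 of it on the antisense strand. Of these levels only the sense level passed, in both mutants (edgeR adjusted p = 3.18e-05 and 2.30e-06 for sense, 0.111 and 0.247 for antisense). With only 10 antisense reads over 3 libraries in each, these intervals are wide.

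Likewise in batch A, the share in AGP//AGe of each phenotype, M317 and M318 did not differ detectably from Ctr//AGe, with log2 differences from -0.64 to -0.06 (edgeR adjusted p from 0.245 to 0.888). Levels did differ. M317 had 0.514 of the sense and 0.405 of the antisense level of Ctr//AGe (edgeR adjusted p = 4.43e-05 and 0.00176), and M318 had 0.593 and 0.384 (edgeR adjusted p = 0.00404 for each). AGP//AGe rMf had 0.638 and 0.610 (edgeR adjusted p = 0.00296 and 0.0485), while the AGe levels of AGP//AGe Wt and sMf did not pass. The share difference between flower phenotypes passed in none of 7 comparisons within a genotype and cassette, in edgeR or in limma, with 0 at an unadjusted p under 0.05 in edgeR. The differences ran from log2 -0.17 for sMf against Wt in hdp2-1 ARE//AGe to 0.72 for rMf against Wt in hdp1-1 ARE//AGe, whose interval was -0.07 to 1.51 (edgeR adjusted p = 0.142). That difference was 1.33 and passed (edgeR adjusted p = 0.0106) when hdp1-1 ARE//AGe Wt replicate 1 was left out, whose share of 12.4% (exact 95% binomial interval 9.93% to 15.3%) was the highest of its group. It was 0.31 without Wt replicate 2 (edgeR adjusted p = 0.598). With libraries over 20% multiply mapped left out it was 0.21, from Wt replicate 1 and rMf replicate 3 alone. AGe levels differed by phenotype in 2 of the 7 comparisons. In suvh1-2 ARE//AGe, sMf flowers had more AGe antisense (log2 1.22 ± 0.39 SE, edgeR adjusted p = 0.0133) and more AGe sense (log2 0.58 ± 0.22, edgeR adjusted p = 0.0209) than Wt flowers. The Wt group had 2 libraries. Of the sMf libraries, replicate 3 was over 20% multiply mapped and had the most AGe antisense, 1.69 RPM against 0.997 and 1.18. With AGP//AGe in Col, rMf flowers had less AGe sense than Wt flowers (log2 -0.58 ± 0.19, edgeR adjusted p = 0.0168).

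AGp reads were present or nearly absent by group. There were 748 in all, and 741 of them lay in the 12 groups with AGP//AGe, with suvh1-2 without a cassette, or with a mutant carrying ARE//AGe. Each of the 34 libraries of these groups held 2 to 61. The other 8 groups, with 23 libraries, held 7 AGp reads in 6 libraries, namely 4 in Col ARE//AGe of batch B, 2 in hdp1-1 and 1 in Ctr//AGe. Groups with no AGp read allow up to 0.0277 RPM in Col ARE//AGe of batch A, 0.0272 in Col, 0.0397 in hdp2-1, 0.0322 in M317 and 0.0480 in M318, as 3 reads over the group. The mean AGe antisense level was 0.553 to 1.63 RPM in the 12 groups. Of the other 8 groups, 5 had lower means than any of the 12, at 0.107 to 0.508 RPM, while Ctr//AGe lay within their range at 1.25 RPM and the Col ARE//AGe groups above it at 12.8 and 14.3 RPM. If the column was counted over M2 in some groups and over AGp in others, these sets do not compare like with like.

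Summed over the 12 groups, AGp reads fell about equally on both strands, while the sums of single groups leaned either way. Of the 741 reads, 52.0% were antisense, and of the 34 libraries 15 had more sense reads, 18 more antisense reads and 1 equal numbers. With AGP//AGe the sense and antisense sums were 24 and 15 with Wt flowers, 14 and 22 with rMf flowers, and 41 and 22 with sMf flowers. In suvh1-2 without a cassette they were 15 and 27. With ARE//AGe they were 17 and 26 in suvh1-2 Wt, 40 and 50 in suvh1-2 sMf, 24 and 23 in hdp1-1 Wt, 25 and 27 in hdp1-1 rMf, 20 and 32 in hdp1-1 sMf, 37 and 36 in hdp2-1 Wt, 53 and 68 in hdp2-1 rMf, and 46 and 37 in hdp2-1 sMf. No set of groups leaned one way beyond its spread. The antisense share was 48.5% ± 24.5 over the 9 AGP//AGe libraries, 59.8% ± 24.3 over 3 of suvh1-2, and with ARE//AGe 57.6% ± 11.6 over 5 of suvh1-2, 56.5% ± 13.5 over 8 of hdp1-1 and 48.1% ± 13.1 over 9 of hdp2-1. With the reads of each set pooled over flower phenotypes, the shares were 42.8%, 64.3%, 57.1%, 54.3% and 50.9% in the same order. Two-sided exact sign-flip permutation tests of antisense minus sense RPM gave p = 0.414, 0.5, 0.25, 0.242 and 0.754 in that order, of which suvh1-2 could not reach below 0.25 without a cassette and 0.0625 with it. Adjusted over the 5 sets the p-values were 0.625 to 0.754. With so few AGp reads a library a lean could go undetected, so these tests do not show equal strands.

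Single libraries departed further from balance. In AGP//AGe sMf replicate 2 the AGp reads were 30 sense and 10 antisense, with an exact 95% binomial interval of 12.7% to 41.2% for the antisense share. In AGP//AGe rMf replicate 2 all 11 were antisense (71.5% to 100%), and in suvh1-2 replicate 1 13 of 16 were (54.4% to 96.0%). Intervals to one side of equal strands were also those of AGP//AGe Wt replicate 3 (4 of 18 antisense, 6.41% to 47.6%) and suvh1-2 ARE//AGe Wt replicate 2 (15 of 20, 50.9% to 91.3%). All were picked from 34 libraries, and the intervals cover counting error only. Within groups the strand split of AGp varied 2.15 times as much as binomial counting error gives (chi-square over its 24 degrees of freedom), 3.81 times in batch A and 1.60 times in batch B. That of AGe also varied 2.15 times as much (37 degrees of freedom). Between groups, edgeR called 0 of 8 comparisons of AGp strand balance by phenotype or cassette, 0 at an unadjusted p under 0.05, and limma called 0 with 0 unadjusted. The widest shift was rMf against Wt in AGP//AGe, at log2 1.43 (95% interval -0.80 to 3.67), so sizeable shifts were not detectable at this depth.

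**Figure D4:**
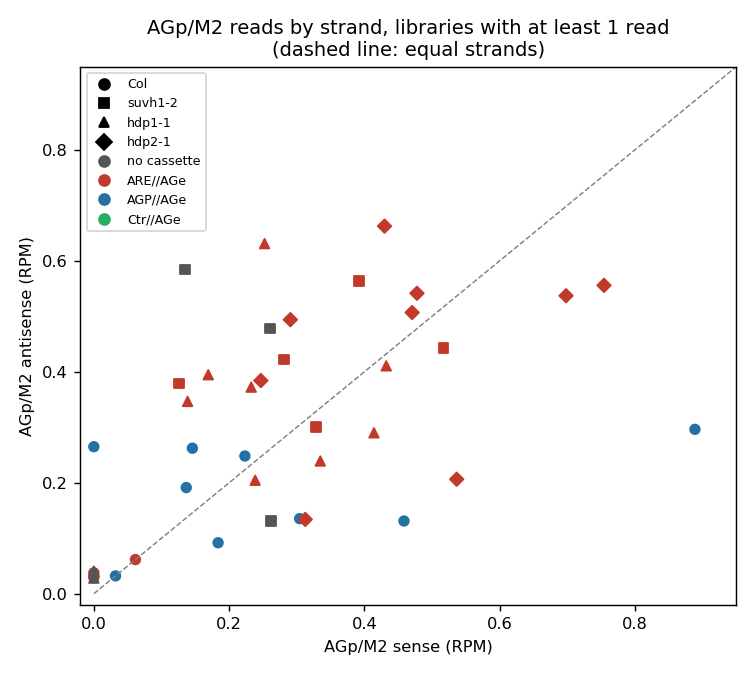
AGp antisense RPM against AGp sense RPM for the 40 libraries with at least 1 AGp read, with symbols for the genotype and colours for the cassette. Points scatter on both sides of the dashed line of equal strands, and AGP//AGe sMf replicate 2 lies farthest to the right, at 0.889 RPM sense and 0.296 RPM antisense.

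The strand split therefore differed between the regions of one library. The antisense share of AGp was above that of AGe in 34 of 34 libraries, by 15.2 to 88.6 percentage points with a median of 41.4. The mean difference was 40.4 ± 23.1 points with AGP//AGe (n = 9), 46.8 ± 15.3 in hdp1-1 ARE//AGe (n = 8) and 34.8 ± 11.7 in hdp2-1 ARE//AGe (n = 9). Two-sided exact sign-flip permutation tests gave adjusted p = 0.00977, 0.0130 and 0.00977, and each raw p was the smallest possible. In suvh1-2 the difference was 46.4 ± 20.4 points without a cassette (n = 3) and 48.1 ± 12.2 with ARE//AGe (n = 5), where the exact test cannot reach below 0.25 and 0.0625. This test was chosen after the values were seen. Every difference was then known to be positive, so the smallest p was certain and adds nothing to the count of libraries. All sets but suvh1-2 without a cassette pool flower phenotypes, so n counts libraries of several groups.

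On the per-kb scale, AGp sense reads were a small fraction of AGe sense reads and AGp antisense reads a large one of AGe antisense reads. Over the 34 libraries the AGp level was 0% to 13.2% of the AGe level on the sense strand (median 4.65%) and 4.61% to 107% on the antisense strand (median 49.1%). On the sense strand the group means ran from 2.56% ± 2.75 with AGP//AGe rMf to 8.40% ± 4.38 in hdp2-1 ARE//AGe sMf. On the antisense strand they ran from 18.8% ± 14.7 with AGP//AGe Wt to 89.3% ± 25.2 in suvh1-2 ARE//AGe Wt (n = 2). In suvh1-2 without a cassette they were 5.47% ± 1.94 and 62.7% ± 26.5.

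The ratio of AGp to AGe reads of the same strand did not differ detectably by phenotype or, in suvh1-2, by cassette. Of 16 tests (8 comparisons on each strand), edgeR called 0, with 0 at an unadjusted p under 0.05 and a lowest adjusted p of 0.858. With limma 0 passed, and the lowest unadjusted limma p was 0.0447 (limma adjusted p = 0.715), for rMf against Wt with AGP//AGe on the antisense strand. There the AGp reads were 7, 11 and 4 beside 39, 37 and 10 AGe antisense reads with rMf flowers, and 10, 1 and 4 beside 42, 31 and 32 with Wt flowers (edgeR log2 1.00, 95% interval -0.38 to 2.39). In suvh1-2, ARE//AGe changed the ratio by log2 -0.28 (-2.07 to 1.501) on the sense strand and 0.48 (-0.91 to 1.88) on the antisense strand. Each of the 16 intervals was more than 2 log2 units wide.

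Within groups, libraries with more reads of one feature did not have detectably more of another. Each library's deviation from its group mean of log2(RPM + 0.05) was correlated for the 6 feature pairs over 57 libraries, with permutation within groups and adjustment over the 6. For AGe sense with AGe antisense, Pearson's r was 0.18 (permutation p = 0.355, adjusted 0.532) and Spearman's rho 0.11 (permutation p = 0.532, adjusted 0.638), with r = 0.26 in batch A and 0.15 in batch B. For AGe sense with AGp sense, r was 0.19 (permutation p = 0.240, adjusted 0.480) and rho 0.12 (permutation p = 0.458, adjusted 0.638), with r = 0.29 and 0.12 by batch. For AGe sense with AGp antisense, r was -0.19 (permutation p = 0.174, adjusted 0.480) and rho -0.21 (permutation p = 0.170, adjusted 0.566), with r = -0.079 and -0.25. For AGe antisense with AGp sense, r was 0.052 (permutation p = 0.818, adjusted 0.818) and rho 0.19 (permutation p = 0.225, adjusted 0.566), and r was -0.15 in batch A and 0.25 in batch B. For AGe antisense with AGp antisense, r was 0.24 (permutation p = 0.179, adjusted 0.480) and rho 0.18 (permutation p = 0.283, adjusted 0.566), with r = 0.24 in each batch. For AGp sense with AGp antisense, r was 0.14 (permutation p = 0.522, adjusted 0.627) and rho 0.086 (permutation p = 0.643, adjusted 0.643), with r = 0.27 and 0.018.

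None of these passed over all libraries or within a batch. Leaving out the 2 libraries farthest from the median on the x axis gave r of 0.11, 0.12, -0.19, 0.15, 0.25 and 0.089 in the same order. Libraries of groups without AGp reads have deviations of 0 in that feature. Among the 34 libraries of the 12 groups with AGp reads, AGe antisense with AGp antisense had the highest r, 0.38, and rho, 0.40 (permutation p = 0.0548 and 0.0455, adjusted 0.329 and 0.273). Between features of one strand or one region, covariation beyond the group means was thus not detectable with 2 or 3 pools a group.

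**Figure D5:**
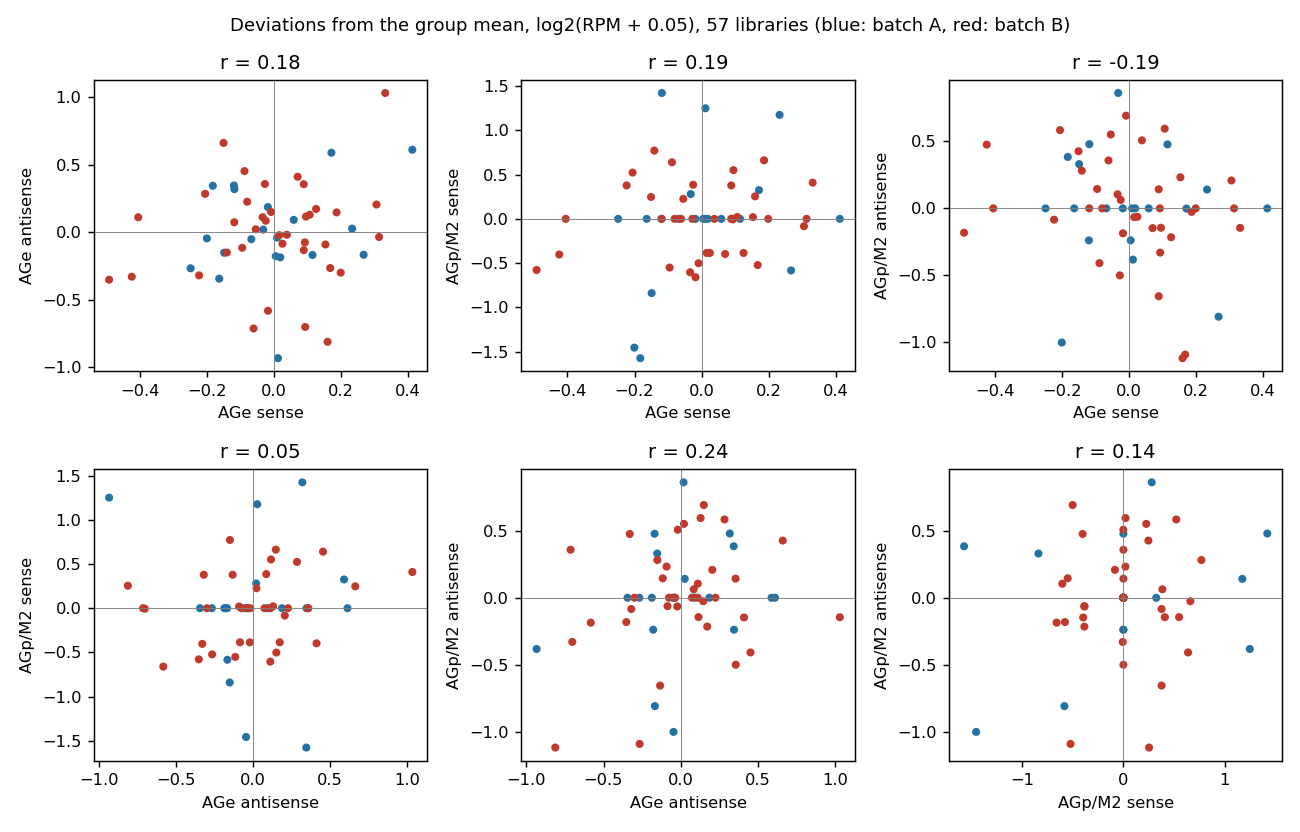
Deviations of each library from its group mean in log2(RPM + 0.05), for the 6 pairs of features, with batch A in blue and batch B in red. The clouds show no strong slope, with r from -0.19 to 0.24, and points on the zero lines are mostly libraries of groups without AGp reads.

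Across group means some features moved together, which is given as a description because groups differ in cassette, genotype, phenotype and batch at once and share their depth between features. Over the 12 groups with AGp reads, AGe antisense and AGp sense had the highest correlation (r = 0.79, rho = 0.85), and in the 9 of batch B it was 0.83 and 0.82. The other pairs over the 12 groups had r = 0.54 for both AGp strands, 0.44 for both AGe strands, 0.37 for AGe sense with AGp sense, 0.35 for AGe antisense with AGp antisense and -0.41 for AGe sense with AGp antisense. In the 9 batch B groups the last pair had r = 0.12. Over the 18 groups other than Col ARE//AGe, the strands of AGe had r = 0.81 and rho = 0.72, with r = 0.94 over 6 groups of batch A and 0.84 over 12 of batch B. Col ARE//AGe of batch B, left out there, ranked 1 in AGe antisense but 18 in AGe sense among the 20 groups. The correlation over all 20 groups was not computed.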

How the data were processed

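The deposited table gives raw read counts of each strand over both regions, per the file headers, with total, uniquely, multiply and all mapped reads of 57 libraries. The authors also deposited RPM values, which equal count / uniquely mapped reads x 1000000 with a largest gap of 0, and a percent of mapped reads, used only to describe libraries. Per the submitters' processing notes, HISAT2, HTSeq 0.13.5 and TAIR10 were used, with settings not given in the sources used here. Sequences and annotation come from RefSeq's TAIR10.1, whose coordinates were taken to match those of the header, which gives no chromosome lengths.

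The features, comparisons and most alternatives were chosen with earlier results of these data known. All 4 features are described in every group, and comparisons are given in full where a share or ratio test passed. Shares and ratios were tested with edgeR 4.0.16 (R 4.3.3) on paired counts, numerator and denominator as columns of each library, with the library as a block, an effect per group and a common dispersion (0.0228 for the share, 37 residual degrees of freedom). For shares and ratios, standard errors are Wald errors scaled by the quasi-dispersion. Their p-values come from the quasi-likelihood F test, and Benjamini-Hochberg adjustment ran within each family. limma 3.58.1 on log2 ratios with 0.5 added was the alternative. Levels as such were fitted with library sizes set to the uniquely mapped reads and a prior count of 0.125, with DESeq2 1.42.0 as the alternative. Their standard errors are the log2 change divided by the square root of the F statistic. Their p-values were adjusted over the 4 features of each comparison only. Correlations used 100000 permutations within groups. Exact intervals and floors of 3 counts cover counting error only.

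Replicate numbers are shared between groups without a stated meaning. Over the 4 features, same-numbered libraries deviated together in every pair (correlation over 0.1) in 3 of the 19 comparisons with 3 pairs, which are AGP//AGe rMf against Ctr//AGe, and suvh1-2 and hdp1-1 against Col without a cassette.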

Additional observations from a re-analysis of the deposited data

Results flagged for a closer look

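The change in the antisense share of AGe with ARE//AGe differed between Col and each mutant, by the test of the difference itself in edgeR. Against plants without a cassette, the log2 odds changed by 6.34 in Col. The change in suvh1-2, hdp1-1 and hdp2-1 differed from that by -7.27, -4.63 and -4.38 (edgeR adjusted p = 2.613e-14, 5.24e-06 and 9.535e-06). All 3 differences rest on the same 6 Col libraries. No group has 4 or more libraries, so libraries far from the rest of their group could not be tested.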

How the results depend on the processing

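The table of alternatives holds 653 values. Of the 12 called share comparisons, 11 kept direction and call under every alternative; the exception was ARE//AGe against none in hdp1-1. With a replicate block no share call changed. The difference for ARE//AGe against none in suvh1-2 passed with libraries over 20% multiply mapped left out (log2 -0.94, edgeR adjusted p = 0.0466). All libraries of that comparison stayed in, so only the spread shared with other groups and the adjustment changed. The cause of the changed call in hdp1-1 was not tested. The within-group correlation of AGe antisense with AGp sense turned to -0.015 with a pseudocount of 0.01, -0.15 in batch A and -0.057 without libraries over 20% multiply mapped, the last chosen after seeing the data. The AGp strand difference in hdp2-1 ARE//AGe turned to 0.556 as raw reads. The median AGe sense level per kb was 2.30 with all mapped reads and 2.15 with total reads as denominator, and that of AGp antisense was 0.114 with total reads. With the replicate block the correlation of AGe antisense with AGp antisense was 0.27.

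Leaving out 1 library at a time, share differences (log2) ran from -0.37 to 0.060 for AGP//AGe Wt and from -0.31 to 0.29 for rMf against Ctr//AGe, and from -0.096 to 0.50 for rMf and -0.36 to 0.10 for sMf against Wt with AGP//AGe. They ran from -0.47 to 0.078 for hdp1-1 and from -0.064 to 0.50 for hdp2-1 against Col. For ARE//AGe against none they ran from -1.35 to -0.46 in suvh1-2 and from 1.11 to 2.13 in hdp1-1. Against Wt with ARE//AGe they ran from 0.31 to 1.33 for hdp1-1 rMf, -0.39 to 0.63 for hdp1-1 sMf and -0.46 to 0.025 for hdp2-1 sMf.

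The ratio of AGp to AGe on the sense strand ran from -1.24 to 0.47 for rMf and -0.73 to 1.08 for sMf against Wt with AGP//AGe, -0.96 to 0.23 for ARE//AGe in suvh1-2, and, with ARE//AGe and against Wt, -0.24 to 0.95 for suvh1-2 sMf, -0.16 to 0.68 for hdp1-1 sMf, -0.20 to 0.33 for hdp2-1 rMf and -0.14 to 0.62 for hdp2-1 sMf. On the antisense strand it ran from -0.49 to 0.75 for hdp1-1 rMf and -0.020 to 0.56 for hdp2-1 sMf. Without one replicate number, correlations ran from -0.18 to 0.42 (AGe strands), -0.052 to 0.36 (AGe with AGp, sense), -0.17 to 0.42 (AGe antisense with AGp sense) and -0.092 to 0.52 (AGp strands), and the AGp difference in hdp2-1 ARE//AGe from -0.047 to 0.011 RPM. Groups left with 1 library borrow the spread of the others. Low AGp counts limit what could be detected. TMM scaling was not run, since 4 features do not carry it, and a minimum of 20 AGp reads left the same 12 groups.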
